A study of Mus musculus with 6 samples.

Results

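Transcripts of 8 genes of steroid, retinoid and vitamin D signalling were compared between wild-type (WT) and RORγt N275D pathogenic Th17 cells: the glucocorticoid receptor Nr3c1, its targets Tsc22d3 and Fkbp5, the vitamin D receptor Vdr, the retinoic acid receptors Rara and Rarg, and the retinoid X receptors Rxra and Rxrb. They were chosen by name, for their place in these pathways, and are 8 of the 16244 genes in the table. All 8 averaged at least 10 normalized reads over the libraries and so were among the 11908 genes tested. Naive CD4+ T cells, labelled as splenic and taken by negative selection, came from WT C57BL/6 mice or from knockin mice on a C57BL/6 background. The knockin mice carry the N275D substitution in RORγt, the nuclear receptor that defines the Th17 lineage. The mice were 6 to 12 weeks old unless noted otherwise, and of both sexes. Both genotypes were cultured for 3 days on plate-bound antibody against hamster IgG with anti-CD3 and anti-CD28, and with IL-6, IL-1β and IL-23, the pathogenic condition, for which the methods also list TGF-β and antibodies to IL-4 and IFN-γ. WT C57BL/6 mice are listed as purchased and the knockin mice as the gift of another laboratory, with littermate controls where applicable, and which mice gave the RNA is not given in the sources used here, so genotype and colony cannot be told apart. Whether the knockin donors were homozygous is not given either.

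Nuclear receptors are transcription factors that are switched by small lipophilic ligands. The glucocorticoid receptor is held by chaperones in the cytoplasm until it binds hormone, whereas the retinoic acid and vitamin D receptors sit on DNA as heterodimers with a retinoid X receptor. In T cells glucocorticoids restrain activation, retinoic acid favours regulatory over Th17 differentiation, and vitamin D dampens inflammatory cytokine production. No steroid, retinoid or vitamin D is listed as an addition to these cultures, whose medium held serum.

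Poly(A) RNA was sequenced from 3 libraries per genotype, with 17659035 to 18510878 reads assigned to genes in each. The labels do not say that replicates came from separate animals or cultures, so the p-values measure the spread between these samples, which may be technical. Median squared differences between replicates were 1.32 to 3.05 times what counting noise alone gives, and WT replicate 3 stood farthest from the other WT libraries. All 8 Th17 markers were detected, at a summed 75444 to 79580 normalized reads in WT and 87625 to 88703 in RORγt N275D libraries. Of the 8, 5 were higher and 3 lower at an adjusted p under 0.05 (limma), with Cd4 and Cd3e among the lower. Il17a and Il17f made up most of the sum, at means of 27495 and 32635 normalized reads in WT and 32152 and 39026 in RORγt N275D cells. The sum of 7 B cell markers was 1130 to 1168 in WT and 1722 to 1779 in RORγt N275D cells, with 5 of 6 tested markers higher, most of it from Ebf1, without which the sums were 163 to 173 and 241 to 308, and with Ms4a1 at a mean of 0.34 and 5.96 normalized reads. The sum of 5 CD8 T and natural killer cell markers was 192 to 225 and then 289 to 316, with 3 of 4 tested markers higher. That of 7 myeloid markers was 89.8 to 111 and then 106 to 131. Of 3 tested myeloid markers, 1 was higher (Cd14, means of 11.3 and 22.9) and 1 lower (Adgre1, 22.6 and 6.64). What part these cells had in the changes below was not tested. In bulk RNA, fewer cells of a type and less RNA per cell cannot be told apart.

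Of the 8 genes, Vdr and Tsc22d3 were higher and Rxra and Rara lower in RORγt N275D cells at an adjusted p under 0.05 (limma), and Nr3c1, Fkbp5, Rarg and Rxrb did not pass. Across all genes tested, 50.9% passed, 24.7% higher and 26.1% lower, so 4 of 8 is near the background and is no result about the group. At a change of at least 2-fold Vdr passed upward, as 2.73% of all genes did, and Rxra passed downward, as 0.857% did, against 3.59% in either direction. The median log2 change of the 8 genes was 0.02, beside -0.0026 over all genes tested. The 3 WT and 3 RORγt N275D values did not overlap for 5 of the 8 genes, and for 57.7% of all genes.

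**Figure D1:**
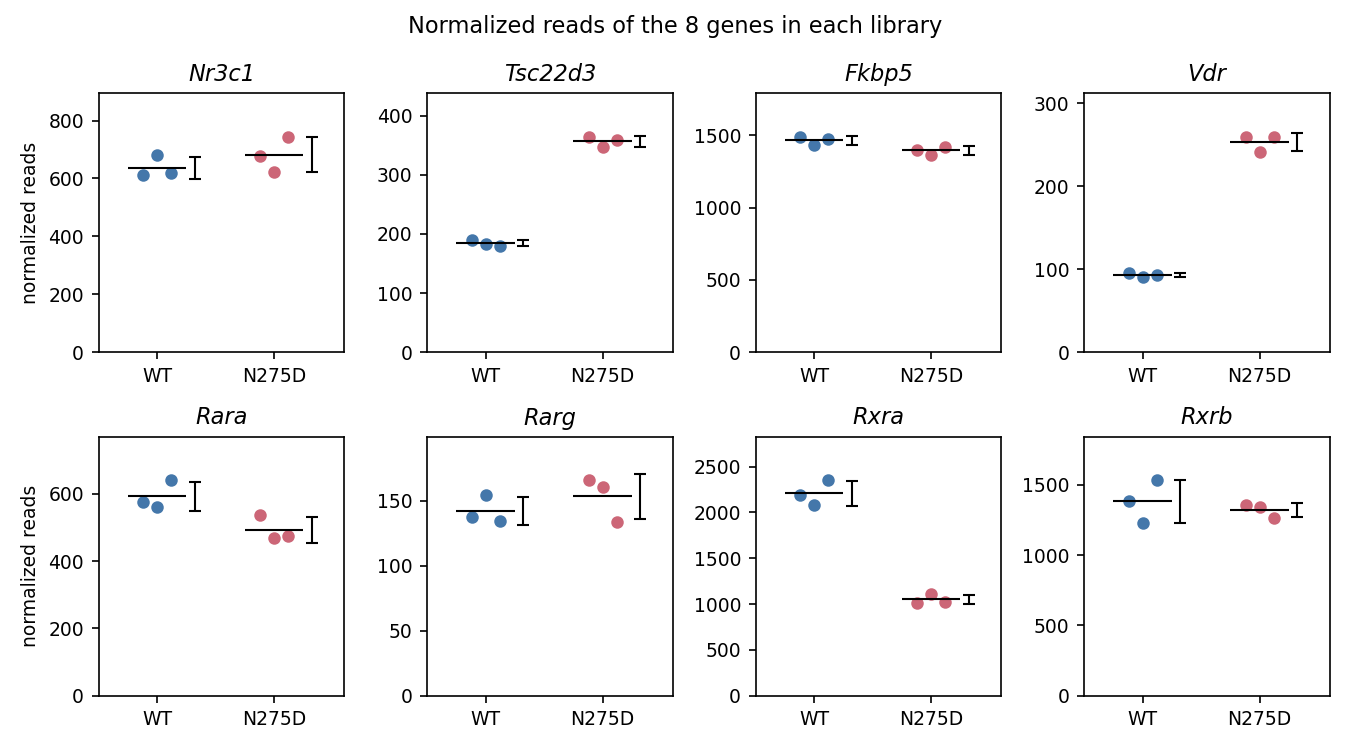
Normalized reads of the 8 genes in each library, with a point for each of 3 WT and 3 RORγt N275D libraries and lines for the mean and SD. The Vdr and Tsc22d3 points of the RORγt N275D libraries lie above all WT points, the Rxra and Rara points lie below them, and those of Nr3c1, Rarg and Rxrb overlap.

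Nr3c1 (mm10 chr18:39410545-39519421, minus strand) encodes the glucocorticoid receptor. It was read at 612, 681 and 618 normalized reads in WT and at 678, 623 and 745 in RORγt N275D libraries. The ranges overlapped and the log2 change was 0.10, with a 95% interval of -0.05 to 0.24 (limma, adjusted p = 0.253).

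Tsc22d3 (chrX:140539528-140600522, minus strand) encodes GILZ, a glucocorticoid-induced leucine zipper protein that curbs NF-κB and AP-1 activity in T cells. WT libraries held 190, 183 and 180 normalized reads and RORγt N275D libraries 364, 346 and 359. The groups did not overlap, and the gene was 1.94-fold higher, a log2 change of 0.95 with an SE of 0.07 (limma, adjusted p = 2.80e-08).

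Fkbp5 (chr17:28398753-28486149, minus strand) encodes FKBP51, a cochaperone that lowers the hormone affinity of the glucocorticoid receptor and is itself induced by it. Its values were 1491, 1432 and 1474 normalized reads in WT and 1402, 1361 and 1422 in RORγt N275D libraries. Every WT value lay above every RORγt N275D value, but the log2 change of -0.07, with an interval of -0.16 to 0.02, did not pass (limma, adjusted p = 0.188). Of the 2 glucocorticoid targets, only Tsc22d3 passed. Tsc22d3 minus Fkbp5 was -2.99 ± 0.04 on the log2 scale in WT and -1.96 ± 0.02 (SD, n = 3) in RORγt N275D cells. This contrast was chosen after the values were seen and largely restates the change of Tsc22d3. Its exact two-sided permutation p was 0.1, the smallest that 3 against 3 libraries can give.

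Of the annotated start sites of Tsc22d3, the most upstream of 3 is shown. The gene total does not separate them, and the others held none of the motifs searched. Among the 15 windows found for 7 of the 8 genes, only the one shown held AGAACA. This is a single arm of the glucocorticoid response element, here on the opposite strand and in capitals:
Tsc22d3 (chrX:140600523-140600772, minus strand): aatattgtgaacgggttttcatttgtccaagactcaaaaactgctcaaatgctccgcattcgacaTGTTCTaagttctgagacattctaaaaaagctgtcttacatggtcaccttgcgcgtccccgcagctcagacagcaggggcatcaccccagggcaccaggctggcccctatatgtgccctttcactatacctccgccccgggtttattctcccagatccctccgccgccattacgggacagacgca

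Among 15 tested glucocorticoid response genes other than these, 4 were higher, 6 were lower and 5 did not pass. Thus 66.7% were called, beside 50.9% of all genes tested. The median log2 change of the 15 was -0.06. It ran from -0.11 without N275D replicate 2 to -0.0086 without WT replicate 2 (-0.016 without WT replicate 3 and -0.024 without N275D replicate 1). Il7r, the interleukin-7 receptor chain that glucocorticoids raise in T cells, showed the largest change upward, from 592 ± 31.8 to 1502 ± 65.4 normalized reads, a log2 change of 1.34. Sgk1, a serum- and glucocorticoid-induced kinase, and Irs2, an insulin receptor adaptor, rose by 0.57 and 0.44 on the log2 scale. Sgk1 lost its call with quantile normalization and without WT replicate 1 or N275D replicate 2, and its change ranged from 0.39 to 0.68 over the alternatives. In the other direction, the circadian repressor Per1 changed by -0.53, the mTORC1 inhibitor Ddit4 by -0.53 and the chemokine receptor Cxcr4 by -0.48. Cebpd, the least lowered of the 6 at -0.21, kept its call in 5 of 17 alternatives. Mt1 and Mt2, the metallothioneins that hormone induces, were at -0.0023 and -0.06 and did not pass. Mt2 stayed uncalled in 16 of 17 alternatives.

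Of 13 tested chaperones and cochaperones of the glucocorticoid receptor, 10 were lower and 3 did not pass, beside 26.1% of all genes tested that were lower. The median log2 change of the 13 was -0.18, or -0.096 with quantile normalization. That scaling also ended the calls of Stip1, Dnaja1, St13 and Hsp90ab1. St13 lost its call without N275D replicate 3 too, and Hsp90ab1 kept its call in 6 of 17 alternatives, the replicate block not among them. Ppid, the cyclophilin Cyp40, fell by 0.46, the constitutive Hsp70 Hspa8 by 0.45 and the phosphatase Ppp5c by 0.44 on the log2 scale. Hspa8 was read at 89301, 88693 and 84567 normalized reads in WT and at 63567, 64545 and 64466 in RORγt N275D libraries. The Hsp90 gene Hsp90aa1 (log2 change -0.06) and the p23 gene Ptges3 (-0.08) did not pass. Both passed as lower with library weights and without WT replicate 3, and Hsp90aa1 also with quantile normalization. Only 3 genes of glucocorticoid metabolism were high enough to test, and of these Cyp11a1, the side-chain cleavage enzyme that begins steroid synthesis, rose by 0.52 on the log2 scale, from 75.4 ± 8.64 to 109 ± 15.7 normalized reads.

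Vdr (chr15:97854427-97908296, minus strand) encodes the vitamin D receptor and showed the largest change of the 8 genes. WT libraries held 94.9, 90.8 and 92.3 normalized reads and RORγt N275D libraries 260, 241 and 259. All 3 RORγt N275D values lay above all WT values. The gene was 2.73-fold higher, a log2 change of 1.44 with an SE of 0.09 and a 95% interval of 1.25 to 1.63 (limma, adjusted p = 2.06e-09), and stood 108th among the genes that were higher. The 250 bases before its start site are shown as the promoter of the gene with the largest change. They held none of the motifs searched, so no letters are in capitals:
Vdr (chr15:97908297-97908546, minus strand): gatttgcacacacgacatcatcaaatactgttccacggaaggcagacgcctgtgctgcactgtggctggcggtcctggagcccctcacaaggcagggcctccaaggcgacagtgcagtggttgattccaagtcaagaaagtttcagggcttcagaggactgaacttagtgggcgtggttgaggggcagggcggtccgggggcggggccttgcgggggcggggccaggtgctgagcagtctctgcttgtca

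Few genes of vitamin D metabolism and response were expressed. Of 11 on the list, 7 had a row, the vitamin D gene Cyp24a1 not among them, and 3 were tested. Of these 3 genes, 2 rose and 1 did not pass, beside 24.7% of all genes tested that were higher. Txnip, the thioredoxin-interacting protein first found as a vitamin D-induced transcript, was at 2322, 2241 and 2224 normalized reads in WT and 5272, 5317 and 5360 in RORγt N275D libraries, a log2 change of 1.23. Thbd, thrombomodulin, was at 9.04 ± 3.71 and 17.3 ± 4.01 normalized reads (limma, adjusted p = 0.0353), a log2 change of 0.92 whose call was lost under 8 of 16 alternatives, among them those without WT replicate 3 or N275D replicate 2 or 3, with a range of 0.53 to 1.15. An antisense gene overlaps exons of Txnip. The libraries were strand-specific, but the strand setting of the counting is not stated, so whether the counts separate the pair is not known. The genes whose profile over the 6 libraries lay nearest to that of Vdr were LOC115488029, Bend4 and Serpinb9, at distances of 0.125, 0.137 and 0.138 among 9573 candidates, the distance being the root of the summed squared differences of their centred log2 values.

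**Figure D2:**
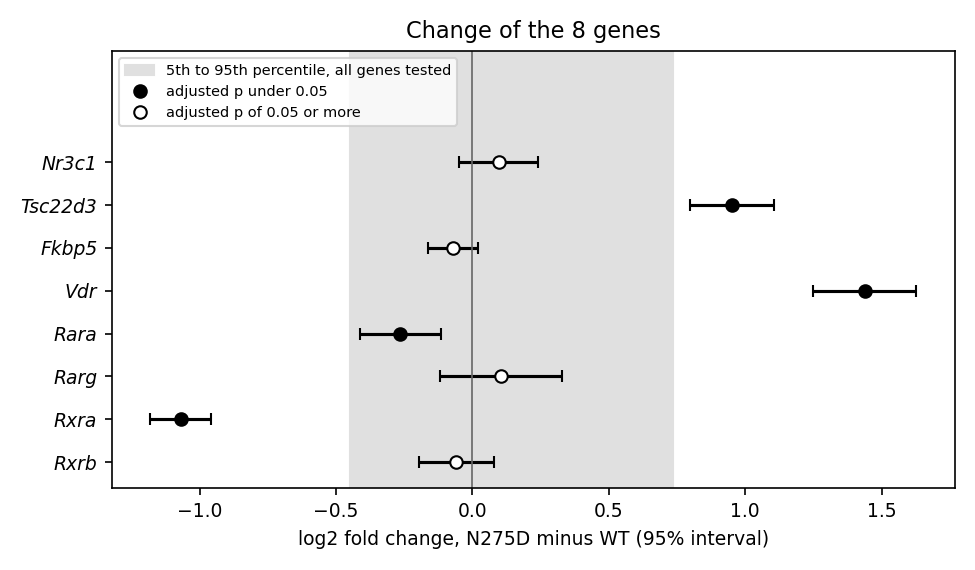
Log2 change of each of the 8 genes, RORγt N275D minus WT, with 95% intervals from limma as bars, filled points for adjusted p under 0.05 and a grey band for the 5th to 95th percentile of all genes tested (-0.45 to 0.74). Vdr at 1.44, Tsc22d3 at 0.95 and Rxra at -1.07 lie outside the band, and the intervals of Nr3c1, Fkbp5, Rarg and Rxrb include 0.

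Rxra (chr2:27676445-27763319, plus strand) encodes retinoid X receptor alpha, the shared partner of many nuclear receptors. Its values were 2187, 2082 and 2353 normalized reads in WT and 1015, 1108 and 1027 in RORγt N275D libraries, and the highest RORγt N275D value was below the lowest WT value. The gene was 2.10-fold lower, a log2 change of -1.07 with an SE of 0.05 and a 95% interval of -1.18 to -0.96 (limma, adjusted p = 1.22e-10), and stood 85th among the genes that were lower. Nearest to its profile were Pou2af1, a transcriptional coactivator known best from B cells, the retinol transporter Stra6 and the zinc finger gene Hivep3, at distances of 0.113, 0.134 and 0.155. Windows were available for 2 start sites, and neither start lies at the first base of the gene given above. Both are shown, since the gene total does not separate them. The second held AGGTCA, the binding unit of many nuclear receptors, on each strand, in capitals, with first bases at -87 and -48 from the start:
Rxra, first site (chr2:27676951-27677200, plus strand): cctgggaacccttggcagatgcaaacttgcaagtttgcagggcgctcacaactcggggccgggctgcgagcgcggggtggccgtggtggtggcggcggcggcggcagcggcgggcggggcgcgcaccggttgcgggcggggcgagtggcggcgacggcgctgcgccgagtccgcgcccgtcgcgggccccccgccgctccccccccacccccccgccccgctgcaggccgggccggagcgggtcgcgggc
Rxra, second site (chr2:27709042-27709291, plus strand): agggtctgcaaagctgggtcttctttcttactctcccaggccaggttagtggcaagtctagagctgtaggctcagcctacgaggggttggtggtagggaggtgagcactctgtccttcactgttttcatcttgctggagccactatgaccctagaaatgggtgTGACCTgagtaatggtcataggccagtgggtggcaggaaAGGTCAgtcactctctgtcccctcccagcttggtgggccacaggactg

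These windows come from RefSeq on GRCm38.p6, which matched 7 of the 8 genes with 15 windows of 250 bases before to 50 after a start site, some of them overlapping, and the bases before the start are printed. AGGTCA stood in 3 of the 15 on either strand and in 16.3% of all 32851 windows, and AGAACA in 1 of 15 and in 19.0%. ACGTG, the core of the hypoxia response element, stood in 5 of 15 and in 19.6%. TAGGTCA, the core of the ROR element, which contains AGGTCA, stood in 0 of 15 and in 2.61% of all windows. The whole glucocorticoid response element, AGAACA and TGTTCT with any 3 bases between them, was in 3 windows of all and in 0 of the 15. A match to these letters is a description and shows no binding.

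Rxrb (chr17:34031812-34038403, plus strand), which encodes retinoid X receptor beta, was at 1383, 1230 and 1533 normalized reads in WT and 1357, 1344 and 1264 in RORγt N275D libraries. The ranges overlapped, and the log2 change was -0.06 with an interval of -0.20 to 0.08 (limma, adjusted p = 0.468). By normalized reads Rxra was the larger in WT, at a mean of 2207 against 1382 for Rxrb. Exon lengths here join the exons of all coding transcripts, 5104 bases for Rxra and 2890 for Rxrb, and isoform use was not measured. Scaled per kilobase of these exons, Rxra made up 46.5 to 48.9% of the 2 transcripts in WT and 29.8 to 31.8% in RORγt N275D libraries. The sum of both fell from 911 ± 79.1 to 663 ± 22.2 normalized reads per kilobase (SD, n = 3). The exact two-sided permutation p was 0.1 for each of these quantities, which were chosen after the values were seen.

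Rara (chr11:98927800-98974942, plus strand) encodes retinoic acid receptor alpha. WT libraries held 575, 560 and 640 normalized reads and RORγt N275D libraries 537, 467 and 473. The groups did not overlap, and the log2 change was -0.26 with an SE of 0.07 (limma, adjusted p = 0.00487), a smaller change than that of Rxra. Rarg (chr15:102234938-102257522, minus strand), for retinoic acid receptor gamma, was at 137, 154 and 135 and then at 166, 161 and 133 normalized reads. Its ranges overlapped, and the log2 change of 0.10 had an interval of -0.12 to 0.33 (limma, adjusted p = 0.432).

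**Figure D3:**
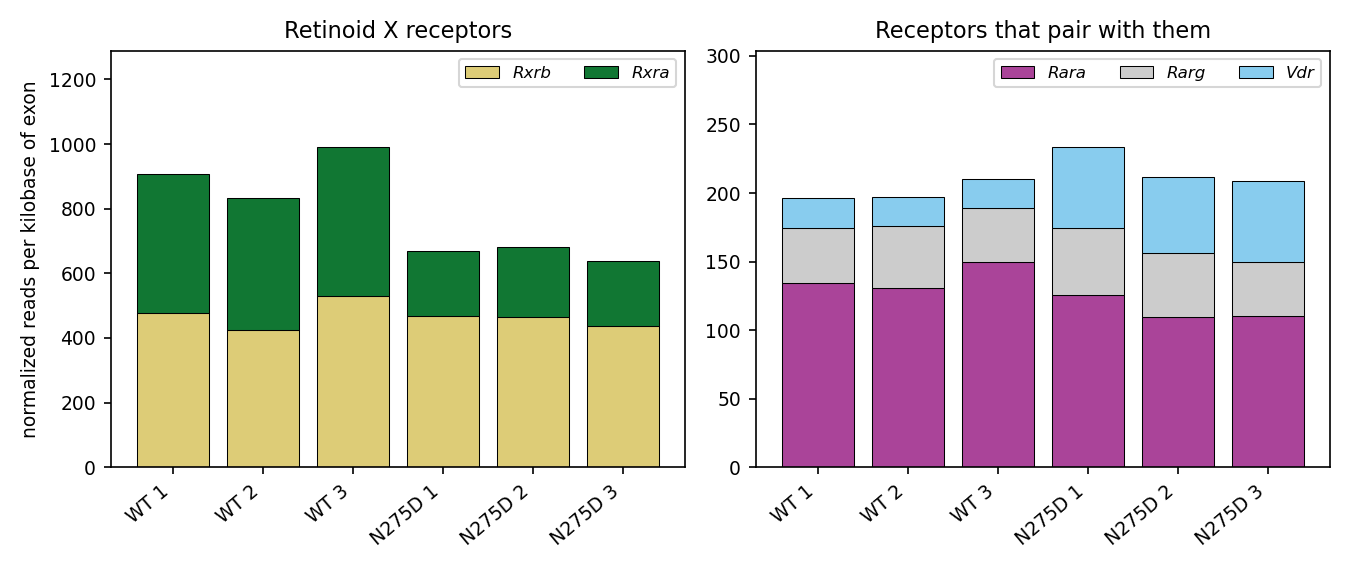
Normalized reads per kilobase of exon for the 2 retinoid X receptors and for Rara, Rarg and Vdr, which pair with them. Stacked bars start at 0, for each of the 6 libraries. The Rxra portion falls from 432 ± 26.7 in WT to 206 ± 9.84 in RORγt N275D libraries above a Rxrb portion of 478 ± 52.5 and 457 ± 17.4, and the Vdr portion grows from 21.2 ± 0.473 to 57.9 ± 2.43.

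The order of levels per kilobase of exon, which rests on joined exon lengths with isoform use not measured, differed between genotypes. In WT cells it ran from Rxrb (478 ± 52.5) and Rxra (432 ± 26.7), whose ranges overlapped, through Fkbp5 (224 ± 4.60), Rara (138 ± 9.99), Nr3c1 (97.4 ± 5.86), Tsc22d3 (66.4 ± 1.86) and Rarg (41.9 ± 3.16) to Vdr (21.2 ± 0.473). In RORγt N275D cells Rxra (206 ± 9.84) overlapped Fkbp5 (213 ± 4.73) instead. Tsc22d3 (129 ± 3.41) overlapped Rara (115 ± 9.03), which overlapped Nr3c1 (104 ± 9.31), and Vdr (57.9 ± 2.43) lay above Rarg (45.1 ± 5.13) in each library. As a description chosen after the values were seen, the ratio of retinoid X receptor transcripts to those of Rara, Rarg and Vdr together was 4.52 ± 0.26 in WT and 3.05 ± 0.18 in RORγt N275D cells, and that of Rxra to Vdr was 20.4 ± 1.23 and 3.56 ± 0.33 (SD, n = 3). The latter sets the most lowered of the 8 genes against the most raised and restates both changes.

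Across all genes tested 50.9% passed, and of 7 tested retinoid response genes 57.1% did, which is near that share. Among these 7, 1 was higher, 3 were lower and 3 did not pass. Their median log2 change was -0.15, and with a library left out it was -0.25 (WT replicate 2), -0.24 (N275D replicate 3), -0.073 (N275D replicate 2), -0.070 (N275D replicate 1), -0.053 (WT replicate 1) or -0.022 (WT replicate 3). Dhrs3, a retinaldehyde reductase that retinoic acid induces, was at 375, 374 and 408 normalized reads in WT and 146, 150 and 153 in RORγt N275D libraries, a log2 change of -1.36 (limma, adjusted p = 6.10e-10). Stra6, the membrane receptor for retinol-binding protein, was at 2588, 2679 and 3007 and then 1341, 1336 and 1277 normalized reads, a log2 change of -1.06 (limma, adjusted p = 1.34e-10). Both were below WT in every library. Tgm2, transglutaminase 2 and a classic retinoic acid target, went the other way, from 3884 ± 76.5 to 6863 ± 120 normalized reads, a log2 change of 0.82. Hic1, a repressor tied to retinoic acid in T cells, fell by 0.25 on the log2 scale, and Crabp2, which carries retinoic acid to the nucleus, was at 301 ± 22.1 and 299.8 ± 17.8.

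Of 10 tested genes of retinoid metabolism and transport, which share Dhrs3 and Stra6 with that list, 1 was higher, 5 were lower and 4 did not pass. Thus 60% were called, beside 50.9% of all genes tested. The median log2 change of the 10 was -0.17. The higher gene was Dgat1, an acyltransferase that makes triglycerides and can esterify retinol, at 569 ± 35.9 and then 1594 ± 78.7 normalized reads, a log2 change of 1.49. The reductase Dhrs4 fell by 0.32 on the log2 scale. The retinaldehyde dehydrogenases Aldh1a1, Aldh1a2 and Aldh1a3, which make retinoic acid, and the retinoic acid hydroxylase Cyp26a1 had means of at most 3.34 normalized reads in either genotype and were not tested.

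**Figure D4:**
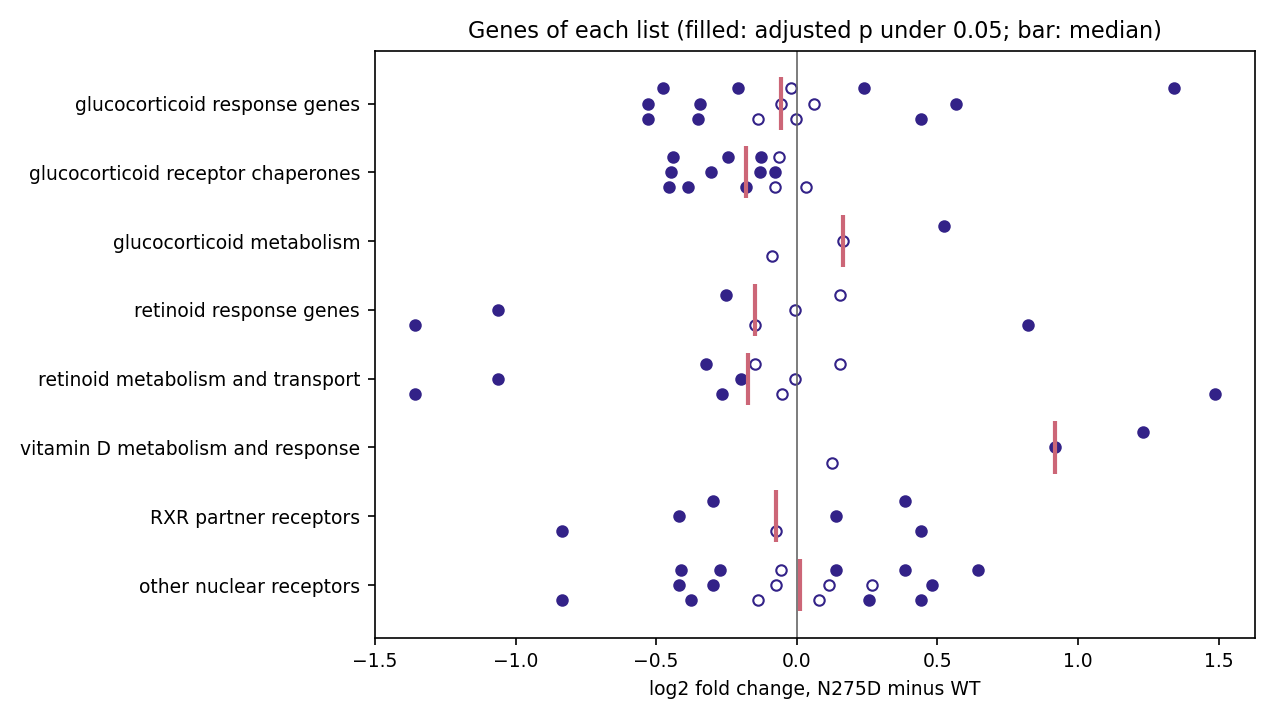
Log2 changes of the tested genes in each list, a point per gene, filled where the adjusted p was under 0.05, with a bar at the list's median. The chaperone points lie mostly below 0, with a median of -0.18, and the retinoid points spread from -1.36 for Dhrs3 to 1.49 for Dgat1.

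Of 7 other tested receptors that pair with the retinoid X receptors, 3 were higher and 3 lower. Thus 85.7% were called, beside 50.9% of all genes tested. The median log2 change of the 7 was -0.08 (-0.12 without WT replicate 2, -0.044 without N275D replicate 3 and -0.022 without WT replicate 3). Nr4a1 and Nr4a2, orphan receptors that T cell receptor signals induce, changed by -0.84 and -0.42, and the thyroid hormone receptor gene Thra by 0.38. Pparg, the adipogenic lipid receptor, changed by 0.44 (0.26 to 0.49 over the alternatives) and lost its call without N275D replicate 1, with quantile normalization and in DESeq2 on the recovered reads. The thyroid hormone receptor gene Thrb changed by -0.30 (-0.45 to -0.25) and lost it without WT replicate 1 or 2 or N275D replicate 1 or 2, with all genes above 0 tested and in DESeq2. Nr1h2, the oxysterol receptor LXR beta, changed by 0.14 (0.11 to 0.19) and lost it without any of these libraries or N275D replicate 3, with the replicate block, with limma's variance not trended and in DESeq2. Among all 18 other nuclear receptor genes tested, which include those 7, 6 were higher, 6 lower and 6 did not pass, with a median of 0.01. Of the 18, 66.7% were called, and Nr1d2 (0.48), a circadian repressor, and Nr4a3 (-0.41) were among them. Vdr and Rxra were thus the nuclear receptor genes with the largest changes among the 24 tested, in a family with no common direction.

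The calls of Vdr, Tsc22d3, Rxra and Rara held under all 17 alternatives of scaling, filter, model and library left out. The other 4 genes did not pass under any of them. The log2 change ranged from 1.33 to 1.47 for Vdr, 0.88 to 0.97 for Tsc22d3, -1.11 to -1.02 for Rxra and -0.33 to -0.21 for Rara.

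**Figure D5:**
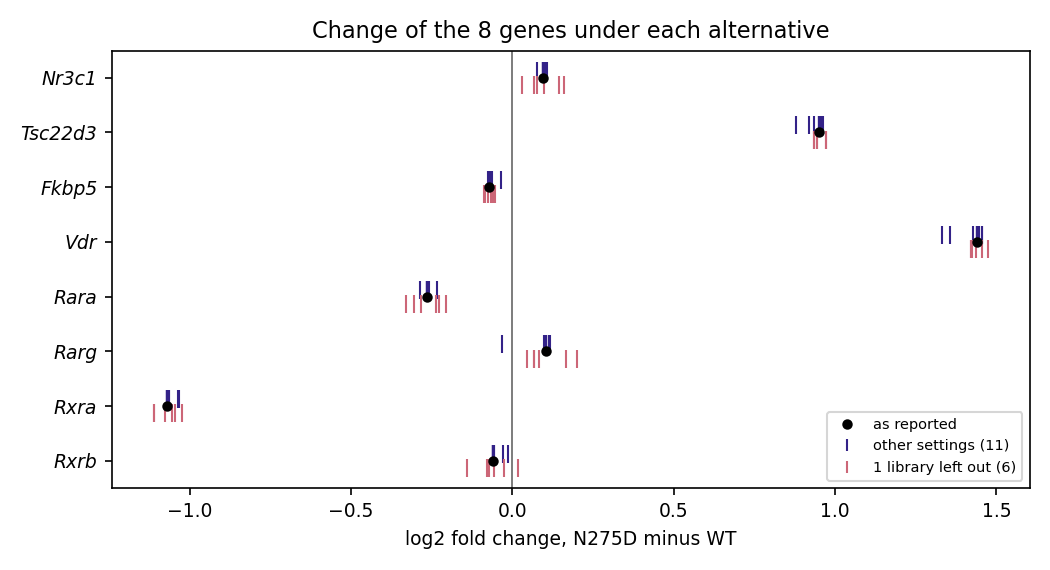
Log2 change of each of the 8 genes under the reported setting (black point) and 17 alternatives, a tick each, blue for other settings and red for a library left out. The 4 called genes keep their direction in all of them, whereas Rarg and Rxrb each cross 0 once.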

How the data were processed

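RNA was sequenced from 3 WT and 3 RORγt N275D libraries. After trimming, the authors mapped reads to mm10 (STAR), assigned them to genes (featureCounts) and scaled the counts (DESeq2). Versions and the strand setting are not given in the sources used here. The deposited table holds these normalized reads, a signal per gene and library. The group means, fold changes, log2 fold changes, p-values, q-values and other scores that the authors deposited were not used. Unused columns holding values of single samples numbered 0.

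Reads were recovered from the deposited values by dividing by what 1 read is worth, and 100% came out whole within 1e-06. Genes with a mean of at least 10 were tested with limma 3.58.1 (R 4.3.3) on log2(value + 1), a scale that understates changes of low genes, with a mean-variance trend (prior degrees of freedom 12.0) and Benjamini-Hochberg adjustment at 0.05. A 2-fold call also needed a log2 change of at least 1. Vdr and Rarg had the fewest reads of the 8, at 90.8 to 260 and 133 to 166 normalized reads per library, and precision covers counting error and library spread only. In simulated data for this comparison (11906 genes), 93 of 98 genes changed 2-fold and 79 of 100 changed 1.3-fold were called, as were 16 unchanged genes. The simulation changed few genes and gave all genes and libraries the same spread beyond counting noise. In the data 50.9% of genes passed and WT replicate 3 stood apart, so these rates need not hold here.

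The 8 genes and all lists were chosen with earlier results of these data known. The text names every one of the 8, and from each list up to 3 called genes per direction with the largest change. Others were chosen after their values were seen. A few genes that the rule selects, and the gene targeted by the knockin, are not reported here. Coordinates and promoter windows come from RefSeq on GRCm38.p6 (mm10), and exon lengths from protein-coding GENCODE transcripts. Alternatives were other pseudocounts, filters, scalings, limma settings, a replicate block, each library left out, and edgeR 4.0.16 and DESeq2 1.42.0 on the recovered reads.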

Additional observations from a re-analysis of the deposited data

How the results depend on the processing

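For the 8 genes no call changed under any of the 17 alternatives. The sign turned for 2 uncalled genes, Rarg with quantile normalization (-0.031) and Rxrb without WT replicate 3 (0.0188), with a range of -0.14 to 0.02 for Rxrb over the libraries left out. Sample numbers did not pair the libraries (correlations of same-numbered libraries -0.05, 0.04 and -0.08), and the fit with a replicate block called 5727 genes in place of 6056 and changed no call of the 8.

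The 427 genes called at 2-fold became 259 with a pseudocount of 10, 703 with all genes above 0 and 162 with a mean of at least 100, and 424 to 450 with a library left out. With quantile normalization 61.4% of them were higher, against 76.1%. Medians of lists moved as well. With quantile normalization they were 0.47 for FOXO-responsive genes, -0.0039 for glucocorticoid metabolism, -0.10 for the chaperones, -0.19 for glucocorticoid response, -0.28 for retinoid response and 0.67 for vitamin D genes. With a mean of at least 100 they were -0.089 for glucocorticoid metabolism, -0.14 for glucocorticoid response, -0.057 for other nuclear receptors, -0.23 for retinoid metabolism, -0.25 for retinoid response, -0.19 for receptors that pair with the retinoid X receptors and 1.23 for vitamin D genes. With all genes above 0 they were 0.34 for glucocorticoid metabolism, 0.10 for other nuclear receptors, -0.0069 for retinoid response and 0.28 for vitamin D genes. Library weights gave -0.21 for the chaperones and 0.67 for vitamin D genes, and a pseudocount of 10 gave 0.53 for the latter. With a library left out, medians ran from 0.41 to 0.47 for FOXO-responsive genes, -0.21 to -0.16 for the chaperones, -0.23 to -0.13 for retinoid metabolism, -0.25 to -0.022 for retinoid response and 0.58 to 1.15 for vitamin D genes. For the receptors that pair with the retinoid X receptors they ran from -0.12 to -0.022, the latter without WT replicate 3. The causes were not tested.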

Other observations

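A pair of further lists gave changes in T cell genes beside those of the receptors. They are not separate from the lists above. FOXO-responsive genes share Il7r and Irs2 with the glucocorticoid response genes. The immediate early genes share Nr4a1, Nr4a2 and Nr4a3 with the other nuclear receptors. Of 12 tested FOXO-responsive T cell genes, 9 were higher, 1 was lower and 2 did not pass in RORγt N275D cells, with a median log2 change of 0.43. S1pr1, a receptor that guides T cells out of lymphoid tissue, rose by 1.04 on the log2 scale beside Il7r (1.34), and Foxo3 fell by 0.30. Of 20 tested genes of the immediate early T cell receptor response, 15 were lower and 5 higher, with a median of -0.42. Egr3 changed by -1.55, Nfkbid by -1.05 and Tnf by -0.99, whereas the phosphatase Dusp5 (0.75), Jun (0.60) and Dusp4 (0.28) went the other way. Over all genes tested, 24.7% were higher and 26.1% lower.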
